A study of Mus musculus with 42 samples.

Results

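The genes described here are the 10 members of the insulin-like growth factor (IGF) system named as ligands, receptors and binding proteins: the ligands Igf1 and Igf2, the receptors Igf1r and Igf2r, and the binding proteins Igfbp2, Igfbp3, Igfbp4, Igfbp5, Igfbp6 and Igfbp7. They were chosen by name, as the probe sets annotated to these genes alone, and account for 28 of the 45037 probe sets and for 10 of the 18193 genes measured. Fmr1-KO mice, which lack the fragile X protein FMRP, were compared with WT mice of the same C57BL/6 background, all untreated, on 42 Affymetrix mouse genome expression arrays. Embryos were taken at 17 to 18 days post conception, and littermates were pooled, so that an array stands for a pool and not for an animal. Hippocampal culture (5 Fmr1-KO and 5 WT arrays) and cortical culture (5 and 5) had matured for 14 days in vitro, and primary hippocampus (6 and 6) and primary cortex (5 and 5) were the embryonic tissue itself. Of 12 mouse IDs, 10 recur in all 4 systems, and none is shared between the genotypes. The labels do not say that arrays of a group came from separate litters beyond these IDs, so p-values measure the spread between these pools.

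IGF-1 and IGF-2 are secreted peptides that promote growth and survival through the type 1 receptor encoded by Igf1r, a receptor tyrosine kinase close to the insulin receptor. The type 2 receptor encoded by Igf2r, which also carries mannose 6-phosphate tagged enzymes to lysosomes, takes up IGF-2 and leads it to degradation. The binding proteins hold the ligands outside the cell and can block or prolong their action, while the product of Igfbp7 binds them only weakly. In the rodent brain Igf2 is best known from the choroid plexus, the meninges and vessels, and Igfbp2 and Igfbp5 from glia among other cells. Igf2 and Igf2r are imprinted in the mouse, though not in every tissue, and alleles were not told apart here.

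Values are log2 RMA expression values, so that a difference of 1 is a doubling. Each gene was represented by its probe set with the highest mean over the 42 arrays. A mean above 5.16, the 95th percentile of 123 probe sets of olfactory receptor, vomeronasal receptor and keratin-associated genes, was read as above background. Array medians lay between 5.40 and 5.56, and no arrays were identical. Fmr1 checked the labels: it lay between 7.88 and 8.10 in the Fmr1-KO hippocampal cultures against 8.69 to 9.17 in WT, between 7.90 and 8.44 against 8.47 to 9.28 in cortical culture, between 8.92 and 9.18 against 9.80 to 10.07 in primary hippocampus, and between 8.89 and 9.0 against 9.86 to 10.01 in primary cortex, without overlap in any system. Of 14 markers of mature neurons, 13 were above background in each culture and 11 in each tissue. The arrays farthest from their group means over all genes were WT 2236 and Fmr1-KO 4236 in cortical culture and WT 2644 in hippocampal culture, and genotype calls that change without them are given beside the others.

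Culture was set against the tissue it came from, averaged over the genotypes, with limma across all probe sets and Benjamini-Hochberg adjusted p-values. Of the 10 IGF genes, 4 rose and 3 fell in hippocampal culture, and 5 rose and 3 fell in cortical culture. Among all genes, 35.9% were called higher and 36.2% lower in hippocampal culture, and 35.3% were called higher and 35.9% lower in cortical culture, so that the share of IGF genes called was close to that of the array. The median size of the difference was 1.38 on the log2 scale for the IGF genes in hippocampus and 1.71 in cortex, against 0.32 over all genes in each. These sets are unlike in level, since 65.6% of all genes had a mean above background, and all IGF genes but Igfbp6 did. Igfbp2, Igfbp3, Igfbp5 and Igf2r rose in both cultures, Igf2, Igf1r and Igfbp7 fell in both, and Igf1 rose in cortical culture. In these bulk samples, a smaller share of cells of a type and less RNA in each of them cannot be told apart. The cultures had also spent 14 days in vitro beyond the age at which the tissue was taken. Culture and age therefore cannot be told apart in any of these differences.

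**Figure D1:**
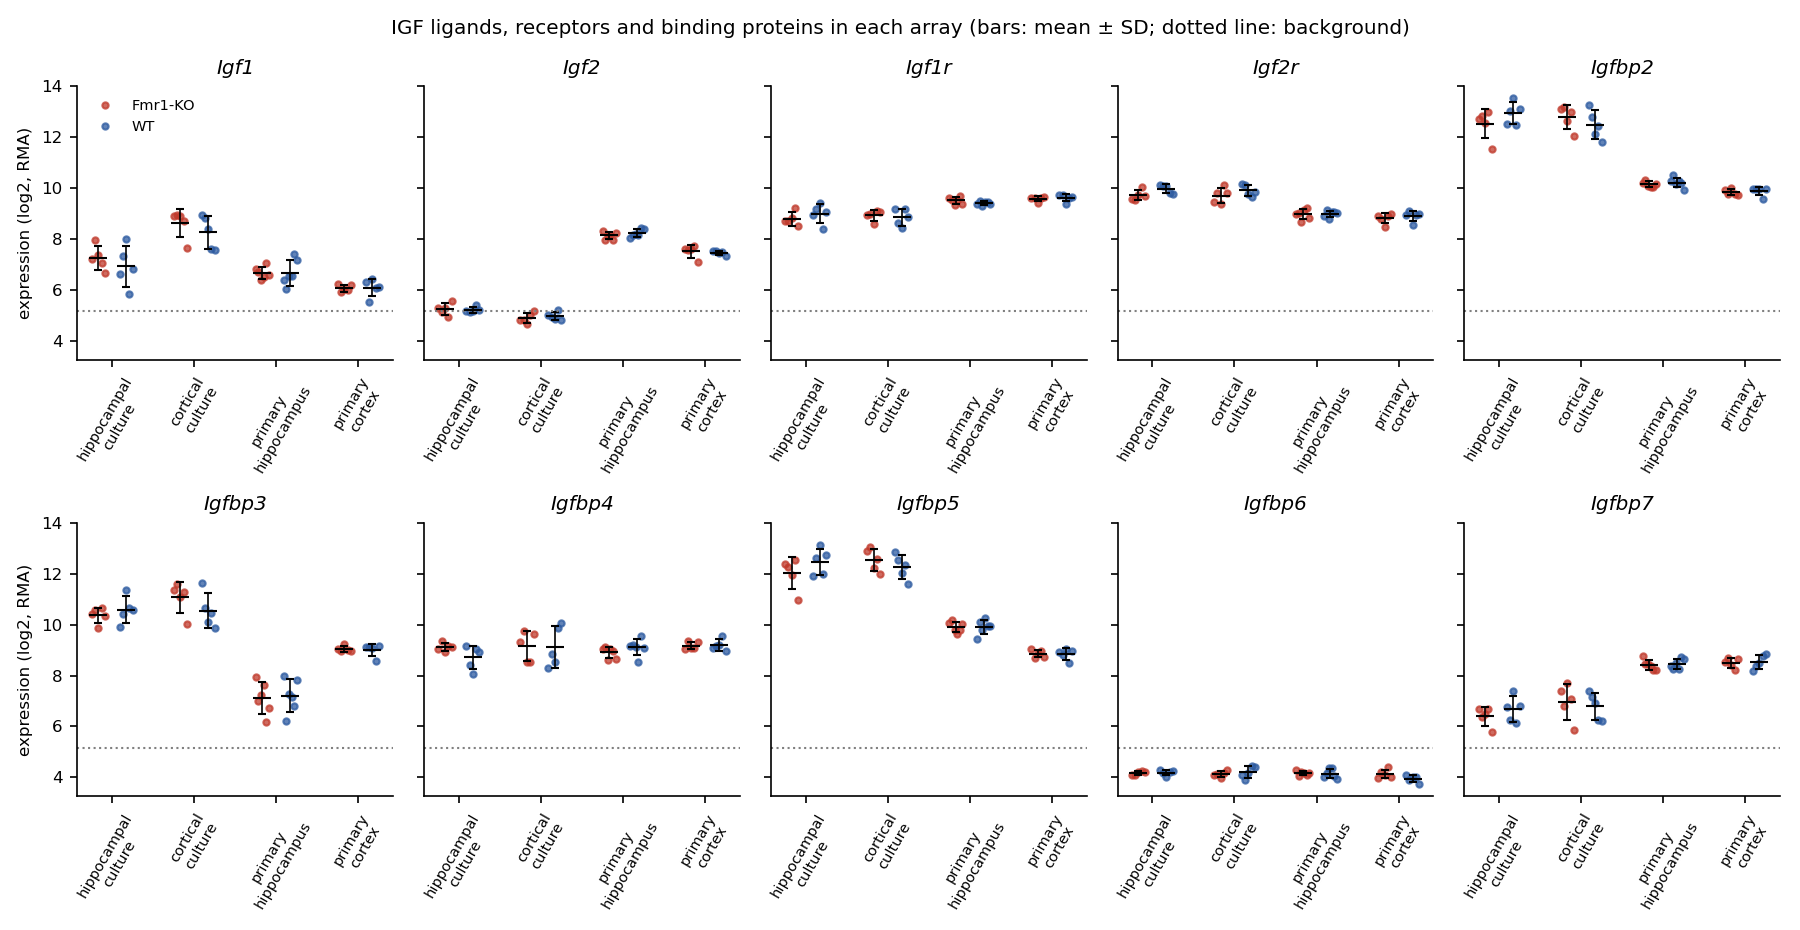
Expression (log2 RMA value, y axis) of the 10 IGF genes in each array of the 4 systems, Fmr1-KO in red to the left of WT in blue, with bars for the mean ± SD (n = 5 or 6 arrays) and a dotted line at the background of 5.16. Igfbp2, Igfbp3 and Igfbp5 are higher in both cultures than in either tissue, Igf2 lies close to background in the cultures and Igfbp6 under it in all groups, while the genotypes overlap throughout.

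The 3 binding protein genes with the largest increase in culture were Igfbp2, Igfbp3 and Igfbp5. Igfbp2 and Igfbp5 are neighbours on chromosome 1, with 5.59 kb and no other RefSeq gene between their ends, and Igfbp3 lies on chromosome 11. Their promoters are shown because these genes rose together in both cultures. Each is RefSeq sequence of build GRCm38.p6, with 250 bases before and 50 after the annotated start, and capitals mark any of 4 motifs searched on both strands. The GC box was searched as GGGCGG and the E-box as CACGTG. The TATA box was searched as TATAAA, and the CCAAT box by the letters of its name. Of the 2 annotated starts of Igfbp2, the promoter of the first is shown.
Igfbp2, chr1:72824230-72824529, plus strand: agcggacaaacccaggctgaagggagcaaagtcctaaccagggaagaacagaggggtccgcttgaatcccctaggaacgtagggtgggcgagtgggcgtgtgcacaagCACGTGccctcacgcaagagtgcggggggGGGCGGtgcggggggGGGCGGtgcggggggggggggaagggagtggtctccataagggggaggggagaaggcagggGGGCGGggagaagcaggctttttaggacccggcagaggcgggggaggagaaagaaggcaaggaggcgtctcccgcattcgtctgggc
Igfbp3, chr11:7213874-7214173, minus strand: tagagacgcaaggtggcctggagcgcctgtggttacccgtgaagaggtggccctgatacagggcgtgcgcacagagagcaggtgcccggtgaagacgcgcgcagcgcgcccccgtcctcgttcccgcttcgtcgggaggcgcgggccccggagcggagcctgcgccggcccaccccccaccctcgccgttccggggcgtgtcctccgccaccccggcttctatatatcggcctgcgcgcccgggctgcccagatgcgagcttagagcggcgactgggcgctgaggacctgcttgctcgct
Igfbp5, chr1:72874816-72875115, minus strand: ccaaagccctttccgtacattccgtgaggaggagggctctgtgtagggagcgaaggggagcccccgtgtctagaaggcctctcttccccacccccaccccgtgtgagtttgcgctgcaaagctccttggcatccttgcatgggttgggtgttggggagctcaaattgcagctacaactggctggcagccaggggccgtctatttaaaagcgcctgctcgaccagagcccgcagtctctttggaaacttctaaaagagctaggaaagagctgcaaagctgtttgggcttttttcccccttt

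The Igfbp2 promoter held 3 GC boxes and 1 E-box, none overlapping another, and neither of the other promoters held any of the 4 motifs. Of 32851 mouse promoters of the same length, 35.7% held a GC box, 7.15% an E-box, 13.6% a TATA box and 37.4% a CCAAT box. The promoters also differed in base composition, with 37 CpG dinucleotides in that of Igfbp3, 18 in that of Igfbp2 and 10 in that of Igfbp5. The 3 genes thus shared none of these motifs in these windows, which is a description of the letters and says nothing about any factor.

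Among the ligands, Igf2 changed most. It lay between 4.95 and 5.56 in hippocampal culture (median 5.19, n = 10), against 7.97 to 8.45 in primary hippocampus (median 8.16, n = 12). In cortical culture it lay between 4.65 and 5.22 (median 4.90), against 7.08 to 7.72 in primary cortex (median 7.51, n = 10 each). The culture and tissue arrays did not overlap, and only 6 of 10 hippocampal and 2 of 10 cortical culture arrays were above background. Igf2 was lower by 2.95 ± 0.07 (SE) in hippocampal culture, or 7.75-fold (adjusted p = 1.4e-29). In cortical culture, where its mean of 4.93 was under background, it was at least 5.02-fold lower (adjusted p = 6.2e-27).

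The other ligand gene, Igf1, went the other way and only in cortical culture passed the test. It lay between 7.55 and 8.93 there (median 8.77), against 5.53 to 6.42 in primary cortex (median 6.08), with no overlap. The difference of 2.36 ± 0.22 was a 5.15-fold increase (adjusted p = 2.1e-12). In hippocampal culture Igf1 lay between 5.82 and 8.02 (median 7.14), against 6.04 to 7.41 in primary hippocampus (median 6.55). These ranges overlapped, and the difference of 0.41 ± 0.21 did not pass the test (adjusted p = 0.077).

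By their brightest probe sets, the receptors moved in opposite directions. Igf1r lay between 8.40 and 9.43 in hippocampal culture (median 8.89), against 9.31 to 9.71 in primary hippocampus (median 9.46), and between 8.45 and 9.20 in cortical culture (median 8.96), against 9.38 to 9.75 in primary cortex (median 9.62). The culture arrays thus sat below the tissue arrays, with overlap in hippocampus only. Igf1r was lower by 0.57 ± 0.09 in hippocampal culture and by 0.71 ± 0.10 in cortical culture (adjusted p = 1.4e-06 and 4.8e-08). Not every Igf1r probe set fell. The dimmest, still above background, gave 0.04 and -0.18 in hippocampal and cortical culture (adjusted p = 0.81 and 0.25). Another gave -0.09 and -0.35 (adjusted p = 0.38 and 0.0011). The remaining ones passed in both, at -0.46 and -0.71 in hippocampal and -0.37 and -0.78 in cortical culture. Igf2r lay between 9.55 and 10.13 in hippocampal culture (median 9.80), against 8.67 to 9.21 in primary hippocampus (median 9.02), and between 9.38 and 10.15 in cortical culture (median 9.81), against 8.48 to 9.10 in primary cortex (median 8.94). All culture arrays were above all tissue arrays of their region. Igf2r was higher by 0.86 ± 0.09 and 0.95 ± 0.09, or 1.82-fold in hippocampal and 1.93-fold in cortical culture (adjusted p = 1.7e-11 and 5.0e-12).

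Igfbp2, Igfbp3 and Igfbp5 encode secreted binding proteins, of which that of Igfbp3 is the main carrier of IGFs in adult blood. Igfbp2 lay between 11.56 and 13.53 in hippocampal culture (median 12.77), against 9.91 to 10.51 in primary hippocampus (median 10.19). In cortical culture it lay between 11.82 and 13.28 (median 12.72), against 9.59 to 9.99 in primary cortex (median 9.94). Neither region had an overlap. Igfbp2 was 5.88-fold higher in hippocampal culture (2.56 ± 0.15, adjusted p = 6.3e-18) and 6.87-fold higher in cortical culture (2.78 ± 0.16, adjusted p = 2.3e-18).

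Igfbp5 lay between 10.97 and 13.12 in hippocampal culture (median 12.34), against 9.43 to 10.27 in primary hippocampus (median 9.95). In cortical culture it lay between 11.60 and 13.05 (median 12.45), against 8.49 to 9.05 in primary cortex (median 8.90). The groups were again apart in both regions. Igfbp5 was 5.08-fold higher in hippocampal culture (2.35 ± 0.16, adjusted p = 4.9e-16) and 11.8-fold higher in cortical culture (3.56 ± 0.17, adjusted p = 7.2e-21). A second Igfbp5 probe set, dimmer over the 42 arrays, gave smaller increases of 0.74 and 0.67 that passed the test in both.

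Igfbp3 lay between 9.88 and 11.37 in hippocampal culture (median 10.50), against 6.18 to 7.98 in primary hippocampus (median 7.18). In cortical culture it lay between 9.87 and 11.64 (median 10.88), against 8.57 to 9.26 in primary cortex (median 9.06). No array of a culture reached down to its tissue. Igfbp3 was higher by 3.32 ± 0.21 in hippocampal culture (adjusted p = 6.9e-17) and by 1.78 ± 0.22, or 3.44-fold, in cortical culture (adjusted p = 5.3e-09), and its second probe set gave 3.21 and 1.90.

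Of the remaining binding proteins, Igfbp7 fell, Igfbp4 did not pass the test and Igfbp6 was not above background on any array. Igfbp7, known from vessels, lay between 5.77 and 7.41 in hippocampal culture (median 6.58), against 8.21 to 8.75 in primary hippocampus (median 8.42), and between 5.86 and 7.72 in cortical culture (median 7.0), against 8.17 to 8.84 in primary cortex (median 8.51). The groups did not overlap, and the differences were -1.90 ± 0.17 and -1.63 ± 0.17 (adjusted p = 5.5e-13 and 1.2e-10), or 3.74-fold and 3.09-fold lower. Of its other probe sets, 1 was under background and 1, with a mean of 6.27, was higher by 0.27 in hippocampal and 0.51 in cortical culture, so that the fall rests on the brightest probe set. Igfbp4, whose product is cleaved by pappalysins, differed by -0.09 and -0.05, with 95% intervals of -0.44 to 0.26 and -0.41 to 0.31.

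**Figure D2:**
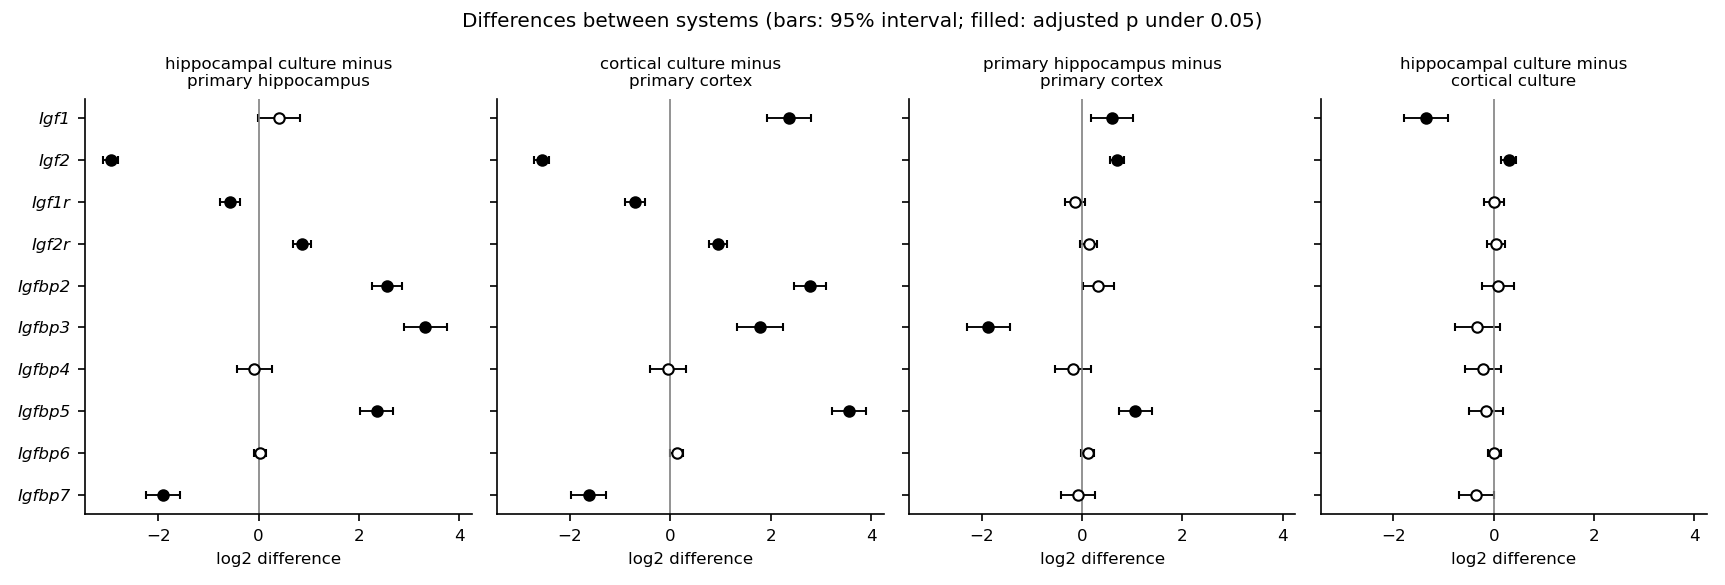
Log2 differences (x axis) of the 10 IGF genes for culture against tissue in hippocampus and in cortex and for hippocampus against cortex in tissue and in culture, with 95% intervals and filled points where the adjusted p was under 0.05. Igfbp2, Igfbp3, Igfbp5 and Igf2r lie to the right of 0 and Igf2, Igf1r and Igfbp7 to the left in both culture panels.

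Markers of cell types and states moved between culture and tissue as well. All 14 markers of mature neurons rose in both cultures (median 2.27 in hippocampus and 1.53 in cortex), those of immature neurons fell for 10 of 10 and 9 of 10 (median -1.98 and -2.13), and those of cell division fell for 11 of 11 and 10 of 11 (median -2.97 and -1.18). Of 14 astrocyte markers, 9 rose and 3 fell in hippocampal culture and 13 rose in cortical culture; their mean level lay between 8.31 and 8.72 in hippocampal culture against 7.36 to 7.77 in primary hippocampus, and between 8.36 and 8.87 in cortical culture against 6.70 to 7.05 in primary cortex. Aqp4, the water channel of astrocytes, averaged 8.90 and 9.39 in hippocampal and cortical culture, and 4.38 and 4.33, under background, in the matching tissues. Of 17 endothelial markers, 11 fell in hippocampal and 13 in cortical culture and 2 rose in each, and the tight junction gene Cldn5 was under background in both cultures (4.04 and 4.07), against 8.73 and 8.51 in the tissues. Of 14 microglial markers, 12 fell in each culture, while 1 rose in hippocampal and 2 in cortical culture. Of 18 markers of meninges and fibroblasts, 10 fell and 4 rose in hippocampal culture, and 7 fell and 8 rose in cortical culture. Choroid plexus markers were mixed: of 14, 5 rose and 5 fell in hippocampal culture, and 7 rose and 2 fell in cortical culture. So were those of pericytes and smooth muscle: of 12, 5 rose and 6 fell in hippocampal culture, and 4 rose and 5 fell in cortical culture. None of these lists holds an IGF gene, and their part in the changes of the IGF genes was not tested.

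Hippocampus was next set against cortex within tissue and within culture. In the tissues, Igf1, Igf2 and Igfbp5 were higher and Igfbp3 was lower in primary hippocampus, where 19.7% of all genes were called higher and 16.7% lower. Igfbp3 showed the largest of these differences, 3.66-fold lower in primary hippocampus (-1.87 ± 0.21, adjusted p = 4.2e-09). Igfbp5 was 2.09-fold higher (1.06 ± 0.16, adjusted p = 1.5e-06) and Igf2 1.62-fold higher (0.70 ± 0.07, adjusted p = 4.1e-10), each without overlap between the regions. Igf1 was higher by 0.60 ± 0.21 with overlapping ranges (adjusted p = 0.024), and this call was lost without WT 2643 of primary cortex (0.53) or without WT 3569 of primary hippocampus (0.52). The other Igf1 probe sets above background gave 0.88 and 0.36 (adjusted p = 8.8e-04 and 0.0019). The one under background gave 0.29 and did not pass (adjusted p = 0.1). The dimmer Igfbp5 probe set gave -0.17 between the tissues and did not pass (adjusted p = 0.27), and the second Igf2r probe set was higher by 0.34 in primary hippocampus (adjusted p = 0.0011), against 0.13 for the brighter one (adjusted p = 0.28). Arrays of the same mouse ID deviated together between the tissues, and with hippocampus minus cortex taken within each of the 10 shared mouse IDs, 7 IGF genes were called, where 46.2% of all genes were. These were the same 4 and, with smaller differences, Igfbp2 (0.31, adjusted p = 0.0016), Igf2r (0.14, adjusted p = 0.009) and Igf1r (-0.13, adjusted p = 0.011).

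The dissected tissues also differed in their non-neuronal markers. Of 14 choroid plexus markers, 12 were higher in primary hippocampus, and Ttr, the transthyretin gene of that epithelium, averaged 12.08 there against 6.15 in primary cortex. Of 18 markers of meninges and fibroblasts, 14 were higher in primary hippocampus, with a mean level of 5.15 to 5.75 against 4.47 to 4.78 in primary cortex. Also higher there were 10 of 14 microglial markers (1 lower), 8 of 14 astrocyte markers (2 lower) and 7 of 17 endothelial markers (0 lower). Of 12 markers of pericytes and smooth muscle, 0 were higher and 2 lower, and of 11 of the oligodendrocyte lineage, 1 was higher and 3 lower. The part of any of these lists in the regional differences of Igf2 and Igfbp5 was not tested.

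In culture, where 14.7% of all genes were called higher and 13.5% lower in hippocampal than in cortical culture, Igf1 was 2.56-fold lower in hippocampal culture (-1.35 ± 0.22, adjusted p = 6.2e-06), the opposite sign to the tissues, and the ranges overlapped. The other 3 Igf1 probe sets, of which 1 had a mean under background over the 42 arrays, gave -0.53, -1.09 and -1.31, and each passed the test. Igf2 was higher by 0.30 ± 0.08 (adjusted p = 0.0023), or at least 1.05-fold, since its level in cortical culture was under background. Of the marker lists, 9 of 11 of the oligodendrocyte lineage (median -0.70), 10 of 12 of interneurons (-0.72, with 1 higher) and 10 of 11 of cell division (-1.07) were lower in hippocampal culture too. Other lists went the other way. There 7 of 14 of the choroid plexus and 6 of 14 of mature neurons were higher with 0 lower, and 4 of 17 of the endothelium were higher with 1 lower. The part of these lists in the difference of Igf1 was not tested. The regional differences of Igfbp3 and Igfbp5 did not pass in culture, with 95% intervals of -0.78 to 0.12 and -0.49 to 0.19.

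The next test asked whether the difference between culture and tissue was larger in one region than in the other. It was the difference between the hippocampal and the cortical change, for which 32.0% of all genes were called. The IGF genes called were Igf1, Igf2, Igfbp3 and Igfbp5. The increase in hippocampus minus that in cortex was -1.95 ± 0.30 for Igf1 (adjusted p = 3.2e-06) and -1.21 ± 0.23 for Igfbp5 (adjusted p = 9.6e-05), so both rose less in hippocampal culture. For Igfbp3 it was 1.54 ± 0.31 (adjusted p = 1.7e-04), so it rose more there. Igf2 passed the test (-0.40 ± 0.10, adjusted p = 0.0035), but its level in cortical culture was under background, so its cortical fall is only bounded and neither the size nor the direction of the regional difference is set. The dimmer Igfbp5 probe set showed no call here (0.06, adjusted p = 0.83), whereas the second Igfbp3 probe set gave 1.32 (adjusted p = 8.4e-04).

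To describe how the IGF genes varied among arrays of a group, each group's mean was taken off and each gene was correlated with 11937 genes above background over the 42 arrays. All genes of an array come from 1 RNA pool, and arrays share mouse IDs, so the coefficients are descriptions. The genes most like Igfbp2 were Pdpn (Pearson r = 0.94), Plxnb2 (0.93) and Bmp6 (0.93), and those most like Igfbp5 were Bmp6 (0.92), Igfbp2 (0.90) and Mlc1 (0.90). Igfbp2 and Igfbp5 had r = 0.97 over the 20 culture arrays and 0.53 over the 22 tissue arrays. In hippocampal culture, for example, Fmr1-KO 4236 was the lowest array for both genes (11.56 for Igfbp2 and 10.97 for Igfbp5) and WT 2644 the highest (13.53 and 13.12).

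**Figure D3:**
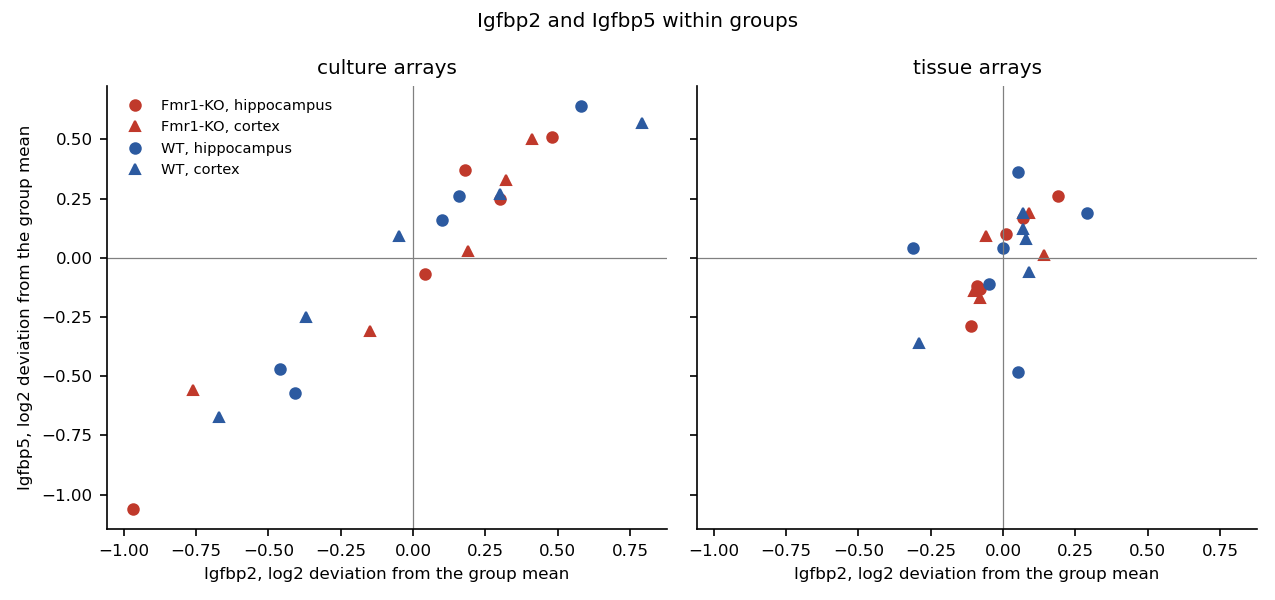
Deviation of each array from its group mean (log2) for Igfbp2 (x axis) and Igfbp5 (y axis), in the 20 culture arrays and in the 22 tissue arrays, with Fmr1-KO in red and WT in blue, circles for hippocampus and triangles for cortex. The culture arrays spread along a line (r = 0.97) and the tissue arrays lie in a smaller cloud (r = 0.53).

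For the ligands, the genes most like Igf1 were Itm2a (0.85), Polk (0.83) and Ikzf2 (0.82), and Igf2 had no coefficient over 0.62 (Slco2b1 and Pacsin1, then Tfpi at 0.58). Among the receptors, Igf1r was most like Wwc1 (0.72), Limch1 (0.69) and Heg1 (0.67), and Igf2r most like Uggt1 (0.81), Slc25a27 (0.76) and Appbp2 (0.75). The receptors varied with each other more in tissue (r = 0.90) than in culture (r = 0.47), a contrast that was not tested. Igfbp3 was most like Fgfr2 (0.79), Lpar1 (0.79) and Ptprz1 (0.74). Igfbp4 was most like Camk2n1, Calb2 and Prrt1 (0.83 each), and Igfbp7 most like Rrbp1 (0.82), Anxa5 (0.79) and Cthrc1 (0.78). Igfbp6 was under background, and its coefficients are not described.

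The Fmr1-KO arrays were compared with WT within each system at an unadjusted p of 0.05, the threshold of the study's methods, with adjusted values beside it. Igf2r in hippocampal culture was the only IGF gene called, where 9.54% of all genes were, and none was called in cortical culture (10.2% of all genes), primary hippocampus (1.54%) or primary cortex (1.66%). With limma, 0 of the 10 passed after adjustment in any system. Igf2r was 9.58, 9.55, 9.74, 10.05 and 9.69 in the Fmr1-KO hippocampal cultures, against 10.13, 10.10, 10.08, 9.83 and 9.77 in WT. The ranges overlapped through the Fmr1-KO array at 10.05. The difference was -0.26 ± 0.13 (limma p = 0.049, exact two-sided permutation p = 0.056, adjusted p = 0.57), and it lost its call without any one of 7 of the 10 arrays: Fmr1-KO 2037, 2038, 2221 and 4236 and WT 2236, 2643 and 2644.

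Averaged over the 4 systems, where 8.04% of all genes were called, Igf2r was again the only one, at -0.14 ± 0.06 (adjusted p = 0.61). By this probe set it was lower in Fmr1-KO in 4 of 4 systems, by 0.26 in hippocampal and 0.19 in cortical culture, and by 0.02 and 0.09 in the hippocampal and cortical tissues. The second Igf2r probe set, also above background, was not called and gave -0.14 in hippocampal culture, 0.00 in cortical culture and -0.06 averaged (adjusted p = 0.79, 1.0 and 0.88). The averaged call of the brighter probe set was lost without Fmr1-KO 2221 of primary cortex or without Fmr1-KO 2037, Fmr1-KO 2221 or WT 2236 of cortical culture. In hippocampal culture, where Igf2r was called, 7 of 10 markers of immature neurons were higher in Fmr1-KO, and their part in it was not tested.

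**Figure D4:**
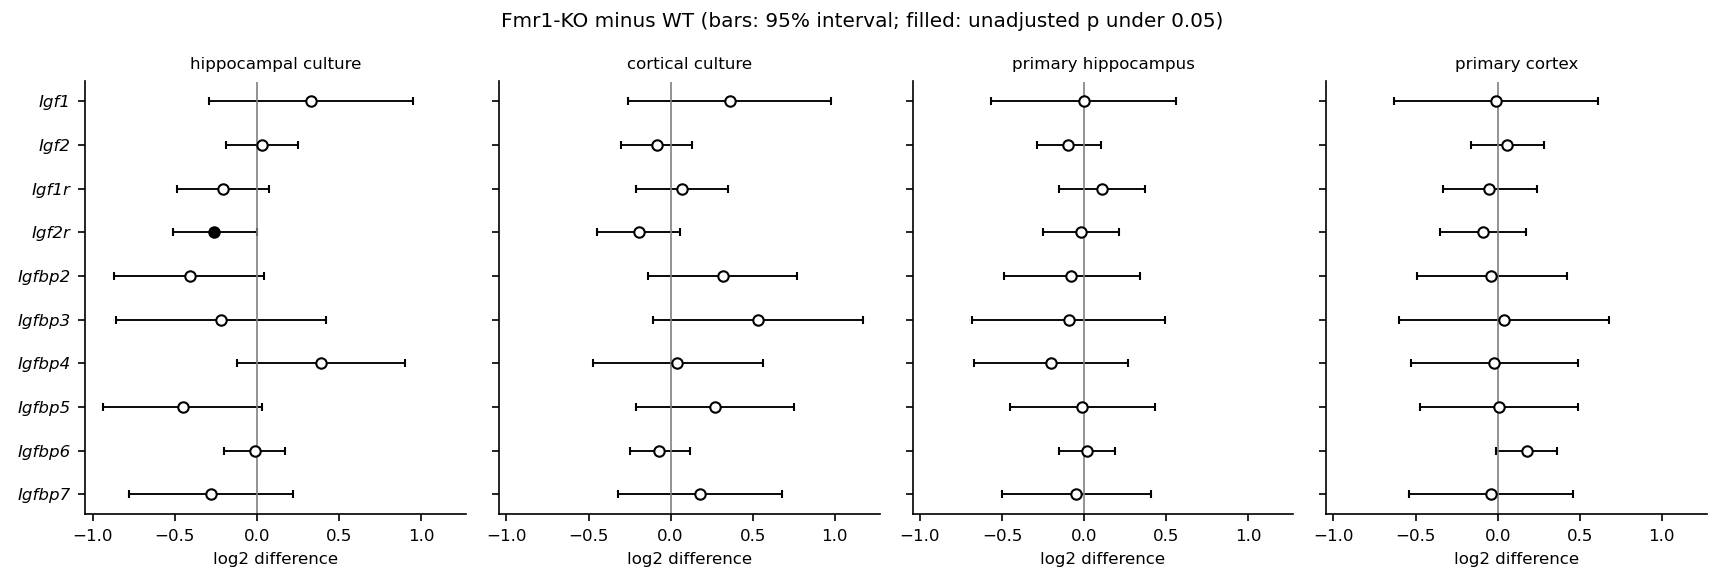
Log2 difference of Fmr1-KO minus WT (x axis) for the 10 IGF genes in each of the 4 systems, with 95% intervals and filled points where the unadjusted p was under 0.05. Igf2r in hippocampal culture (-0.26) is the single filled point, and its interval ends just short of 0.

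The intervals use the model's spread for each gene, which is common to cultures and tissues. For Igfbp5 the group SDs were 0.63 and 0.51 in Fmr1-KO and WT hippocampal culture, against 0.21 and 0.29 in primary hippocampus. For Igfbp3 they were 0.3 and 0.53, against 0.63 and 0.65. Intervals can be too narrow where spread is larger and too wide where it is smaller. They bound a genotype difference only under a common spread. For Igfbp5 in hippocampal culture, the exact permutation p was 0.26. In the tissues, the differences lay between -0.20 and 0.18, with interval limits from -0.68 to 0.68. In the cultures they lay between -0.45 and 0.53, with limits from -0.94 to 1.17. Igfbp5 was 12.40, 12.28, 11.96, 12.54 and 10.97 in the Fmr1-KO hippocampal cultures, against 11.91, 12.64, 13.12, 12.01 and 12.74 in WT, with overlapping ranges (-0.45, 95% interval -0.94 to 0.03). In cortical culture it was 12.88, 13.05, 12.24, 12.58 and 11.99 in Fmr1-KO, against 12.84, 12.54, 12.02, 12.36 and 11.60 in WT, and these overlapped too (0.27, 95% interval -0.21 to 0.75).

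Since Igfbp2 and Igfbp5 leaned in opposite directions in the cultures, their genotype differences were compared between hippocampal and cortical culture, a comparison chosen after the values were seen. For this, 4.55% of all genes were called at an unadjusted p of 0.05. The difference between the differences was -0.73 ± 0.32 for Igfbp2 and -0.73 ± 0.34 for Igfbp5. Both passed that threshold and not the adjusted one (limma adjusted p = 0.98 each). For Igfbp3 it was -0.74 ± 0.45, which passed neither. These standard errors use the spread common to cultures and tissues, although only culture arrays are compared. For Igfbp2, group SDs were 0.43 to 0.57 in the cultures and 0.11 to 0.19 in the tissues. Its standard error may therefore be too small, and so may that of Igfbp5. Most arrays of the same mouse ID deviated together between the cultures, and with hippocampal minus cortical culture taken within mouse ID, where 3.48% of all genes were called, no IGF gene passed even the unadjusted threshold (Igfbp2 -0.73 ± 0.35 and Igfbp5 -0.73 ± 0.37, adjusted p = 0.93 each). The cultures hold the 3 arrays farthest from their group means. Without them, a choice also made after the values were seen, 5 IGF genes were called in cortical culture instead of 0, where 23.6% of all genes were: Igf1 (0.77, adjusted p = 0.10), Igfbp2 (0.70, adjusted p = 0.033), Igfbp3 (1.06, adjusted p = 0.024), Igfbp5 (0.55, adjusted p = 0.17) and Igfbp7 (0.61, adjusted p = 0.073), all higher in Fmr1-KO. In cortical culture the arrays left out were WT 2236 and Fmr1-KO 4236. For each of these 5 genes, WT 2236 was the highest WT array and Fmr1-KO 4236 the lowest Fmr1-KO array. Leaving both out raises these differences by construction, so the calls are not an independent test of genotype. In hippocampal culture, 8.71% of all genes were called without the 3 arrays. Igf1 was called there (0.61, adjusted p = 0.61) and Igf2r was not (-0.23, adjusted p = 0.72). The array left out there, WT 2644, was the highest WT array for Igf1 (8.02). Averaged over the systems, where 14.1% of all genes were called, Igf1 was called (0.34, adjusted p = 0.26) and Igf2r was not (-0.13, adjusted p = 0.45).

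Other genes of the pathway also differed between culture and tissue. Of 68 measured genes (receptors and adaptors, the PI3K, Akt and mTOR arm, proteases of the binding proteins, related carriers, Igf2 mRNA-binding proteins and imprinted growth genes), 36 rose and 23 fell in hippocampal culture, and 33 rose and 21 fell in cortical culture. Among all genes, 35.9% rose and 36.2% fell in hippocampal culture, and 35.3% rose and 35.9% fell in cortical culture. Sorl1, a sorting receptor, rose 6.72-fold in hippocampal culture (adjusted p = 6.3e-23), and Ctsd, the lysosomal protease cathepsin D, rose 2.86-fold there and 3.72-fold in cortical culture (adjusted p = 3.4e-19 and 1.8e-21). The imprinted gene Peg3 rose by 0.91 and 1.32 on the log2 scale in hippocampal and cortical culture (adjusted p = 3.1e-18 and 1.7e-22). Igfbpl1, a gene related to the binding proteins, fell 11.6-fold in hippocampal and 31.9-fold in cortical culture (adjusted p = 4.7e-22 and 8.9e-26). Pappa2, a protease that cleaves IGFBP-3 and IGFBP-5, was at least 4.17-fold lower in hippocampal culture (adjusted p = 2.4e-22), where its mean of 4.38 was under background.

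Between the tissues, 22 of the 68 genes were higher and 11 lower in primary hippocampus, against 19.7% and 16.7% of all genes. Of 12 proteases of the binding proteins and their inhibitors, 8 were higher and 1 lower there, with Htra1, a serine protease, 5.07-fold higher (adjusted p = 7.8e-19) and Pappa2 3.33-fold higher (adjusted p = 1.2e-14). Between the cultures, 15 of the 68 were higher and 14 lower in hippocampal culture, against 14.7% and 13.5% of all genes. Igfbpl1 was 3.68-fold higher there (adjusted p = 7.3e-12). Ccn3, which encodes a matrix protein with a domain like that of the binding proteins, was 15.0-fold lower (adjusted p = 8.7e-12). Between genotypes, 1 of the 68 was higher and 4 lower in Fmr1-KO hippocampal cultures at the unadjusted threshold (9.54% of all genes called). In cortical cultures 2 were higher and 1 lower (10.2% of all genes called). In either tissue 0 were called (1.54% of all genes in hippocampus and 1.66% in cortex). Among these, Sorl1 was 10.20 in Fmr1-KO and 10.72 in WT hippocampal cultures (adjusted p = 0.34), and Rictor, an mTOR complex subunit, was 8.54 in Fmr1-KO and 8.30 in WT cortical cultures (adjusted p = 0.35). None passed after adjustment.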

How the data were processed

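The deposited values were log2 expression values made by the authors with RMA, as their processing notes name it. The study's methods describe 1 normalised matrix of all arrays and do not say whether RMA was run on them together. The platform reads 3′ ends of oligo-dT primed RNA. Tissue was kept in RNAlater and cultures were snap frozen, so storage differed between tissue and culture. Of 45101 probe sets, 64 controls were left out, and 34945 named 1 gene, 932 several and 9160 none; 1 IGF probe set shared with another gene was not used. All probe sets and 42 arrays were fitted in 1 model with 8 group means (R 4.3.3, limma 3.58.1), p-values were adjusted over all 45037 probe sets by Benjamini-Hochberg, and tables and plots were made with Python 3.11.15, pandas 2.3.3, numpy 2.4.6 and matplotlib 3.10.9. The model gives each gene a spread common to all groups. The fit was tested on simulated data drawn with that same common spread, so the test does not cover unequal spread between culture and tissue. Exact permutation tests were two-sided, and the smallest p they allow is 0.0079 with 5 arrays against 5 and 0.0022 with 6 against 6. The number of arrays limits the precision.

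The IGF genes, gene lists and comparisons were chosen with earlier results of these data known. All 10 genes were described, with every array for those called between genotypes; of the other pathway genes the 3 with the smallest p in each direction could be named, and for each IGF gene the 3 genes most correlated with it. Igfbp2 and Igfbp5 array values between genotypes were added after they were seen. All 10 genes matched RefSeq promoters (14 entries); proteins are not analysed here. Per the methods, pairs of Fmr1-KO and WT cultures were processed on 1 day, but the labels do not give these pairs and the genotypes share no mouse ID, so genotypes were compared unpaired. Mouse IDs tie arrays across systems; 1 of them reads NT, which the labels do not explain. Residual correlations of arrays with the same ID ran from 0.305 to 0.597 between the tissues (10 of 10 over 0.1), from -0.143 to 0.63 between the cultures (9 of 10), and from -0.197 to 0.295 between a culture and a tissue. The main model has no block, and regions were also compared by differences within mouse ID. Alternatives were other scalings, probe set rules, filters, array weights, variance models, thresholds, fewer arrays in the fit, mouse ID as a block, and leaving out each array.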

Additional observations from a re-analysis of the deposited data

Results flagged for a closer look

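In 8 of 80 sets of 1 gene in 1 group, an array stood far from the others, where chance gives about 1 in 20. Igf1 was 7.66 in Fmr1-KO 4236 of cortical culture, the next array being 8.72, and Igf2 was 7.08 in Fmr1-KO 4236 of primary cortex, the next being 7.58. In primary cortex of Fmr1-KO, array 2221 was lowest for Igf1r (9.41, next 9.61) and highest for Igfbp3 (9.26, next 9.04). In primary cortex of WT, array 3569 was lowest for Igfbp2 (9.59, next 9.95) and for Igfbp3 (8.57, next 9.09), and array 2644 was lowest for Igf2r (8.56, next 8.95). In hippocampal culture of WT, array 3569 was highest for Igf2 (5.39, next 5.20), close to background. The difference between culture and tissue was unlike in hippocampus and cortex, by a test of the difference, for Igf1 (-1.95), Igfbp3 (1.54) and Igfbp5 (-1.21). The test also passed for Igf2 (-0.40), whose level in cortical culture was under background, so neither the size nor the direction of that difference is set.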

How the results depend on the processing

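The culture comparisons and the test of their difference between regions kept their counts within 1.5 times under every alternative run. Of 989 recomputed values for 27 called differences, 967 kept their call, 22 lost it and 0 changed sign. These alternatives did not take every single probe set in turn. Dimmer probe sets above background had the opposite sign for Igfbp7 in both cultures and for Igf1r in hippocampal culture. The dimmer Igfbp5 probe set did so between the tissues and for the difference between regions. Of these opposite differences, only those of Igfbp7 passed the test. Requiring at least a 2-fold change left 2 of 4 calls between the tissues and 1 of 2 between the cultures. Both receptors also stayed under 2-fold between culture and tissue. In hippocampal and cortical culture, Igf1r was 1.48-fold and 1.63-fold lower and Igf2r 1.82-fold and 1.93-fold higher. The genotype calls moved most. In hippocampal culture, 1 call (Igf2r) became 2 with the smallest-p probe set (Igf1r added) and 2 with array weights (Igfbp2 and Igfbp5, Igf2r lost), and 0 with arrays centred on their medians, probe sets above background only, the 10 shared mouse IDs, the mean of probe sets or adjusted p. In cortical culture, 0 calls became 1 with the smallest-p probe set (Igfbp7, lower in Fmr1-KO), 4 with array weights and 5 without the 3 farthest arrays. Leaving those arrays out was chosen after seeing the data, and the cause was not tested. For the 5 genes then called, it raises the difference by construction. In primary cortex array weights gave 1 (Igfbp6, under background). The averaged call became 0 with array weights, the mean of probe sets or adjusted p. Without the 3 arrays Igf1 replaced Igf2r in hippocampal culture and in the average, and Igfbp2 between the tissues (0.32, adjusted p = 0.04) and Igfbp7 between the cultures (-0.50, adjusted p = 0.0072) were gained. Leaving out each array gave 0 to 4 calls in hippocampal culture, 0 to 3 in cortical culture, 0 to 0 in primary hippocampus, 0 to 1 in primary cortex, 0 to 1 for the average, 7 to 8 and 8 to 9 for culture in hippocampus and cortex, 3 to 4 between tissues, 2 to 3 between cultures and 4 to 4 for the difference between regions. With mouse ID as a replicate block over all systems (correlation 0.068) the counts stayed at 7 and 8 for culture in hippocampus and cortex. Differences within mouse ID, also chosen after seeing the data, gave 7 calls between the tissues instead of 4 and ended the calls of Igfbp2 and Igfbp5 between the genotype differences of the cultures, and the block changed no other call. Arrays near background limit Igf2 in culture and Igfbp6 throughout.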
